A study of Gallus gallus with 8 samples.

Results

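The genes described here act at the end of the canonical Wnt pathway, in the nucleus and in its negative feedback. They were LEF1, TCF7, TCF7L1 and TCF7L2, the transcription factors that carry the signal to DNA, and AXIN2, NKD1, DACT1, DACT2, ZNRF3 and SP5, genes that the pathway induces or that restrain it. They were found as all probe sets whose platform gene symbol is one of these 10, with Affymetrix control probe sets left out. This gave 8 of the 10 genes, with 19 of 38439 probe sets, out of 13009 genes with a probe set of 1 symbol. TCF7 and SP5 had no probe set under their symbols and are not analysed here. A probe set is a group of short probes read as 1 value, and those of a gene are called below by order of brightness, from the highest mean over the 8 arrays down.

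The samples were chick tissue at Hamburger-Hamilton stage 8 (HH8), and the labels name no strain, treatment or genetic change. The cranial neural fold, the raised border of the neural plate that holds the future neural crest, gave 4 arrays (HH8_NF), and the cranial neural plate, called ventral in the series text, gave 4 (HH8_NP). The series text gives 80 to 114 embryos, so a sample probably holds tissue of many embryos, but the labels do not state how embryos were shared out. The p-values reflect how far the 4 samples of a tissue differ, which may include technical variation. The test used (limma) also draws on the spread of all tested probe sets for each p-value. Each array is 1 GeneChip chicken genome array, and values below are log2(intensity + 16) after quantile normalization.

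When a Wnt ligand binds its receptors, beta-catenin escapes destruction, enters the nucleus and joins a TCF or LEF protein on DNA, turning a repressed target into an active one. Targets such as AXIN2, NKD1, ZNRF3, LEF1 and SP5 feed back on the pathway, and AXIN2 is widely used as a readout of it. In the early vertebrate head, Wnt signals at the edge of the neural plate help to set the neural plate border and the neural crest, while TCF7L1 is known in mouse and zebrafish as a repressor needed for forebrain.

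The labels were compared with marker genes, the brightest tested probe set standing for each gene. The marker lists were chosen with earlier results of these data known, so this is no independent check of the labels. All 7 of 7 neural fold and crest markers, such as PAX7 (log2 change 6.14 ± 0.31, SE) and SNAI2 (4.65 ± 0.27), were higher in neural fold, and 5 of 6 ventral plate markers, such as SHH (-2.31 ± 0.27), were lower. SOX2, a neural progenitor factor, was lower by the same test (-1.31 ± 0.24, limma adjusted p = 0.038). It was 1 of 4 neural markers, of which CDH2 (-0.86 ± 0.14) was also called lower. SOX3 (-0.25 ± 0.15) and OTX2 (-0.17 ± 0.14) were not called. Markers of other tissues also differed. Of 5 genes of the notochord and prechordal plate, which lie under the midline, 3 were called lower in neural fold, TBXT among them (-3.72 ± 0.16). By limma at an unadjusted p under 0.05, 4 of the 5 were lower and 0 higher. Their summed normalized intensity ranged over 997 to 1476 on neural fold arrays and 10950 to 17427 on neural plate arrays, and 1 of them, GSC, lay above background on 0 neural fold arrays. The sum over 4 non-neural ectoderm markers was 12919 to 15345 in neural fold but 8959 to 10166 in neural plate, with 1 (CDH1) called higher. Most of this sum was EPCAM (mean log2 13.63 and 13.16), which was bright in both tissues and not called (0.47 ± 0.14). GATA3 (1.27 ± 0.33) and GATA2 (0.06 ± 0.62) were not called either. By limma at an unadjusted p under 0.05, however, 3 of these 4 were higher (CDH1, EPCAM and GATA3) and 0 lower. Of all named genes, 4.01% were higher and 5.06% lower at that p. The sum over 4 endoderm markers was 1152 to 2095 and 2755 to 3879, with 1 (SOX17) called lower (2 lower at an unadjusted p under 0.05). A dimmer probe set of APOA1, another of these markers, was also called lower (-1.99 ± 0.21, limma adjusted p = 0.0027). The sum over 5 blood and endothelial markers was 712 to 1198 and 1304 to 2364, with 0 called by limma (1 lower and 0 higher at an unadjusted p under 0.05). The lower one, LMO2 (-2.39 ± 0.46), lay just short of the threshold (limma adjusted p = 0.0504). The 6 head mesoderm markers summed to 7374 to 8308 and 6372 to 7378, with 0 called (2 higher and 3 lower at an unadjusted p under 0.05). Most of this sum was CYP26C1 (mean log2 12.75 in neural fold and 12.30 in neural plate), so it says little about the others. CYP26C1 and TBX1 (1.17 ± 0.42) were the higher ones. TWIST1 (-1.98 ± 0.53), FOXC1 (-0.96 ± 0.26) and FOXC2 (-0.87 ± 0.30) were the lower ones. The part of these tissues in the results below was not tested. In pieces of tissue, fewer cells of a type and less RNA per cell cannot be told apart.

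The arrays numbered 1 stood apart from the others in both tissues, with median deposited intensities of 195.7 and 182.1 against 105.3 to 121.6 on the other 6 arrays. Arrays of 1 tissue correlated at 0.895 to 0.952 after normalization.

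NKD1 was the one measured gene of the set that differed past the threshold, and it was higher in neural fold. AXIN2, DACT1, DACT2 and ZNRF3 all had lower means in neural fold on each of their probe sets, and LEF1 and TCF7L1 had higher means, but none of these passed. Of the 19 probe sets, 17 were bright enough to be tested, having a mean over the 8 arrays no lower than the 40th percentile of all probe sets. Of these 17, 1 was called higher and 0 lower by limma at an adjusted p under 0.05. Of all 23063 tested probe sets 1.28% were called, 0.694% higher and 0.585% lower. At an unadjusted p under 0.05, 2 were higher and 5 lower, where 8.26% of all tested probe sets passed, 3.86% higher and 4.39% lower. The median log2 difference over the 17 was -0.19, against -0.00056 over all tested, and the median size was 0.38 against 0.19. The 17 are not independent measurements, since 4 of them target DACT2 and 4 target TCF7L2.

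**Figure D1:**
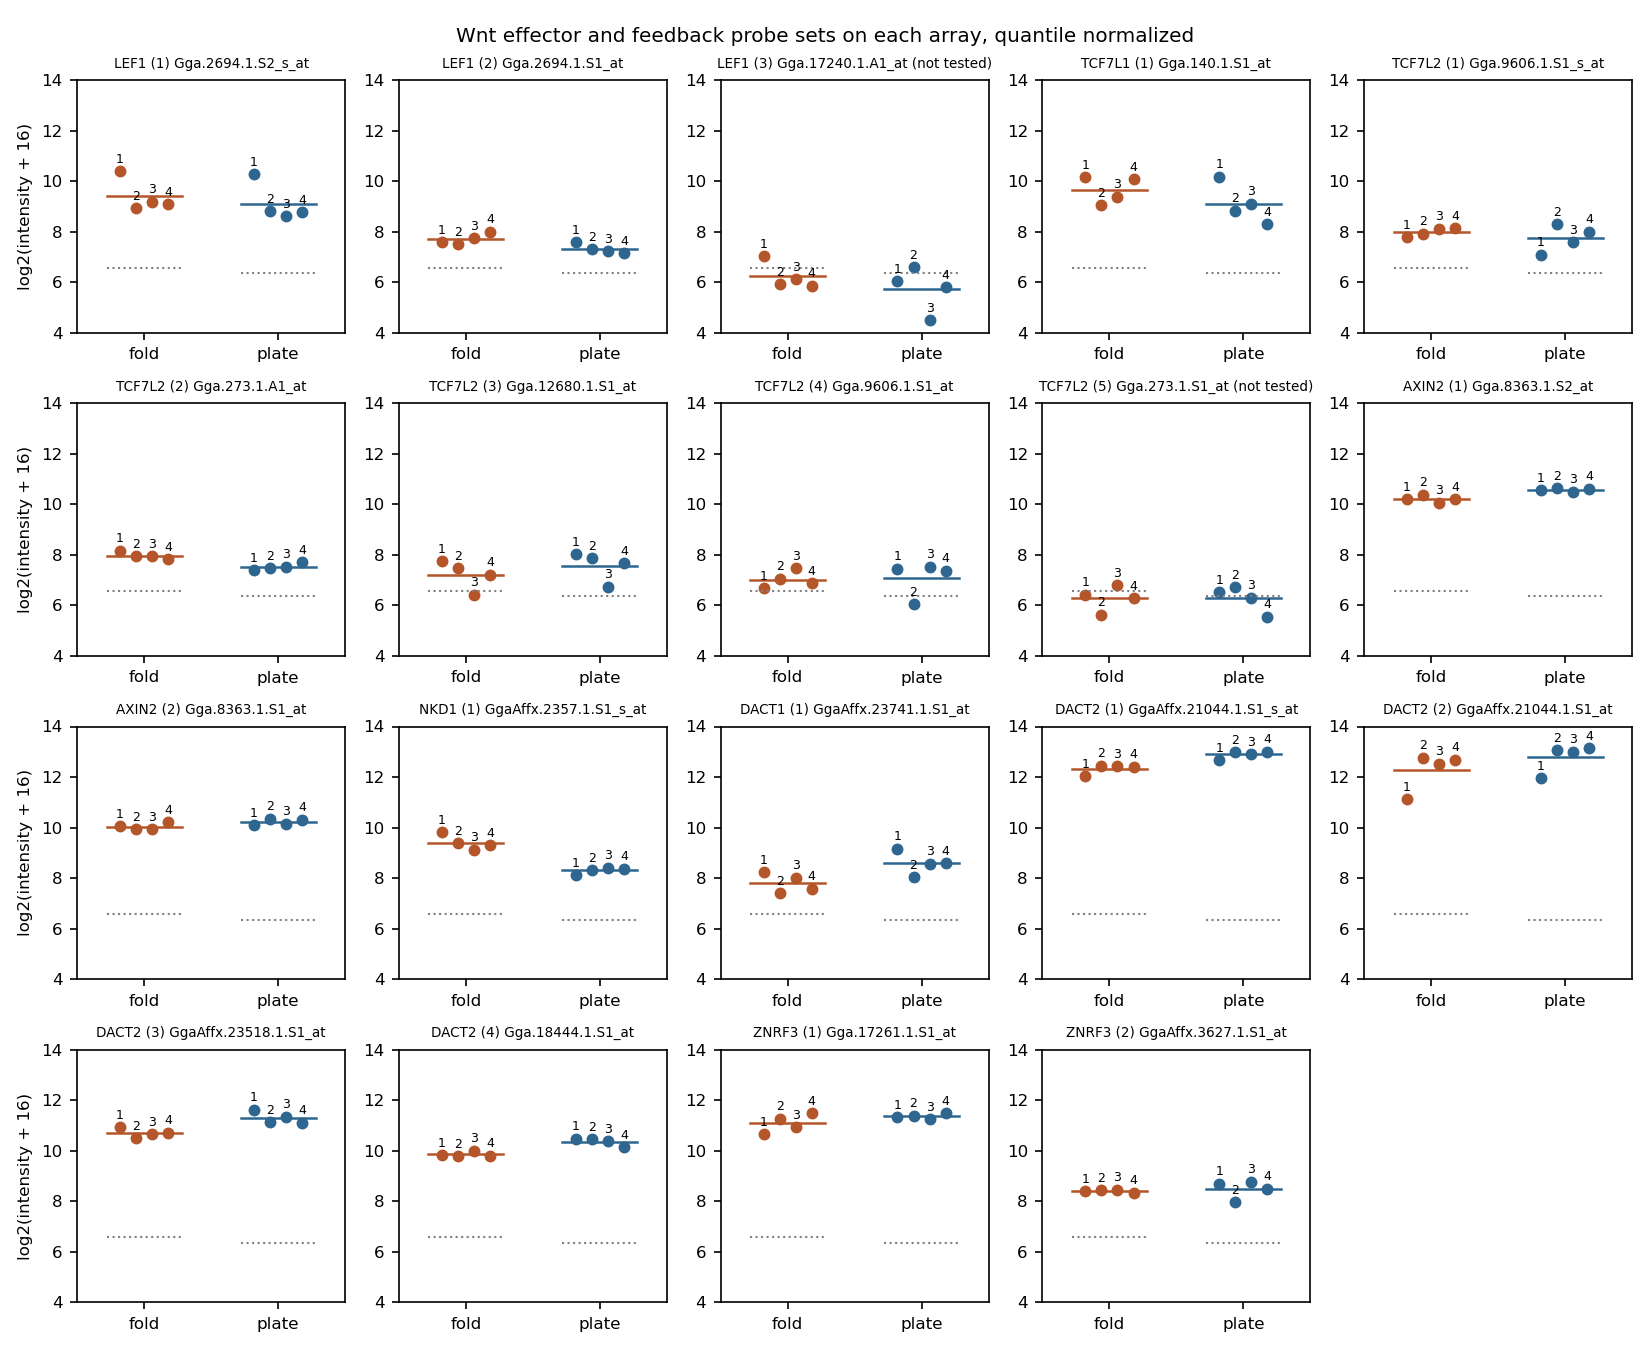
Normalized log2(intensity + 16) of the 19 probe sets on each array, with neural fold in brown and neural plate in blue. Each point is 1 array labelled with its number, bars are means of 4, and dotted lines are the mean background limit of the tissue, and the number after each gene is the probe set's order of brightness. NKD1 shows 4 neural fold arrays from 9.13 to 9.82 above 4 neural plate arrays from 8.11 to 8.41, while the brightest LEF1 probe set shows both arrays numbered 1 above the rest.

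NKD1 encodes an inhibitor that binds Dishevelled, the protein that relays the signal from the receptor. Its deposited intensities were 875.3, 632.5, 530.6 and 598.2 on neural fold arrays 1 to 4, and 320.1, 286.4, 313.4 and 304.2 on neural plate arrays 1 to 4. On the normalized log2 scale the neural fold values were 9.82, 9.38, 9.13 and 9.30, and the neural plate values 8.11, 8.33, 8.41 and 8.37. All neural fold arrays lay above all neural plate arrays, neural fold array 1 was the highest and neural plate array 1 the lowest.

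The log2 change of NKD1 was 1.10 ± 0.18 (SE), the tissue means being 9.40 ± 0.29 for neural fold and 8.30 ± 0.14 for neural plate (SD, n = 4). This is 2.15-fold, with a 95% interval from 1.60-fold to 2.88-fold (limma adjusted p = 0.029). Between arrays of the same number the difference was 1.71, 1.05, 0.72 and 0.93, higher in neural fold in 4 of 4. The labels do not say what a number shares, and pairing was not shown beyond the arrays numbered 1. Pairs here and below are therefore matches by number only. By unadjusted p, NKD1 ranked 217 among all tested probe sets.

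The call for NKD1 depended on the fit, while its direction did not, and its log2 change varied from 0.90 to 1.19. With the replicate number as a block the adjusted p was 0.079, with no filter on dim probe sets 0.087 and with median centring 0.13. Without both arrays numbered 1 the change was 0.90 ± 0.11 (adjusted p = 0.017). Leaving out single arrays gave changes of 0.97 to 1.19 and adjusted p of 0.030 to 0.098, and the call was kept in 1 of 8 such fits, the one without neural fold array 1. NKD1 was measured by a single probe set, whose suffix (_s_at) in Affymetrix naming marks probes shared by more than 1 transcript, so the level is uncertain to that extent. The brightest probe sets of LEF1, TCF7L2 and DACT2 carry the same suffix.

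The genes whose profile over the 8 arrays was most like that of NKD1 were CLCN6, IGFBP2 and MAFA. The root-mean-square difference of centred log2 values was 0.095 for CLCN6, a chloride transport protein, 0.14 for IGFBP2, a binding protein of insulin-like growth factors, and 0.16 for MAFA, a transcription factor. Their own log2 changes were 1.09 ± 0.17, 1.12 ± 0.15 and 0.87 ± 0.16. Changes near that of NKD1 follow from picking genes by likeness to it and are no separate result.

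AXIN2, a scaffold of the complex that destroys beta-catenin and a direct Wnt target, had a lower mean in neural fold on both probe sets. On the brighter one the neural fold values were 10.21, 10.38, 10.06 and 10.21, and the neural plate values 10.57, 10.63, 10.50 and 10.61. The tissues did not overlap on this probe set, and the spread within neural plate was small (SD 0.056, n = 4). The log2 difference was -0.36 ± 0.14 (SE), a 95% interval of -0.68 to -0.045 (limma adjusted p = 0.48).

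On the dimmer AXIN2 probe set the neural fold values were 10.04, 9.95, 9.95 and 10.23, and the neural plate values 10.11, 10.35, 10.16 and 10.32. Here neural fold array 4 lay among the neural plate arrays. The difference was -0.19 ± 0.15, with an interval of -0.53 to 0.14 (adjusted p = 0.95). Both AXIN2 probe sets were lower in neural fold in 4 of 4 pairs of same-numbered arrays. Neither was called under any alternative, and the lowest adjusted p were 0.14 and 0.46. A difference of AXIN2 towards neural fold above 0.14 on the log2 scale lies outside both intervals.

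DACT2 encodes a Dishevelled-binding scaffold, known in fish and mouse for damping Nodal and TGF-beta receptors as well as for its ties to Wnt signalling. Its 4 probe sets had log2 differences of -0.60 to -0.51 in neural fold. On the third in brightness the neural fold values were 10.95, 10.51, 10.66 and 10.72, and the neural plate values 11.62, 11.13, 11.36 and 11.11. All neural fold arrays lay below all neural plate arrays.

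On the brightest DACT2 probe set the neural fold values were 12.03, 12.45, 12.43 and 12.40, and the neural plate values 12.66, 12.99, 12.92 and 13.00. The array numbered 1 was the lowest of each tissue, and the tissues did not overlap. On the fourth, the deposited intensities were 887.3, 851.3, 1011.8 and 871.4 on neural fold arrays 1 to 4 against 1346.8, 1398, 1353.8 and 1134 on those of neural plate, and after normalization the tissues again did not overlap. The second, which by its name was drawn from the same transcript cluster as the brightest, overlapped. Its neural fold values were 11.13, 12.76, 12.53 and 12.69 and its neural plate values 11.95, 13.06, 13.00 and 13.13. There the array numbered 1 lay 1.53 below the mean of the others in neural fold and 1.11 below it in neural plate. The difference on this probe set was -0.51 ± 0.42, and -0.40 ± 0.11 without both arrays numbered 1. Leaving out 1 array moved it from -0.79, without neural plate array 1, to -0.13, without neural fold array 1.

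The 3 DACT2 probe sets without overlap had differences of -0.60 ± 0.18, -0.57 ± 0.17 and -0.51 ± 0.15 (limma adjusted p = 0.26, 0.25 and 0.24). All 4 were lower in neural fold in 4 of 4 pairs by number. With the replicate block the lowest adjusted p among the 4 was 0.078. A term for the arrays numbered 1, added after seeing the data, called 2 of them lower, the brightest (limma adjusted p = 0.014) and the third (0.029). That fit called 2.07% of all tested probe sets lower and 1.67% higher. With both arrays numbered 1 left out, neither was called (adjusted p = 0.054 and 0.097). As a mean over its 4 probe sets, DACT2 differed by -0.55 ± 0.14 (adjusted p = 0.14 over all named genes). The notochord and prechordal plate markers given above were lower in the same tissue, and their part in the DACT2 values was not tested.

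DACT1, the relative of DACT2 that is known to act on Dishevelled, had the largest negative mean difference among the tested probe sets of the set. Its neural fold values were 8.23, 7.41, 8.01 and 7.58, and its neural plate values 9.17, 8.05, 8.57 and 8.58. Neural fold array 1 lay above neural plate array 2, so the tissues overlapped. The log2 difference was -0.78 ± 0.28 (SE), with an interval of -1.42 to -0.14 (limma adjusted p = 0.42), and it was lower in neural fold in 4 of 4 pairs by number, with -0.55 the value nearest to 0. The array numbered 1 was the highest of its tissue in both, and the blocked fit gave an adjusted p of 0.070.

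**Figure D2:**
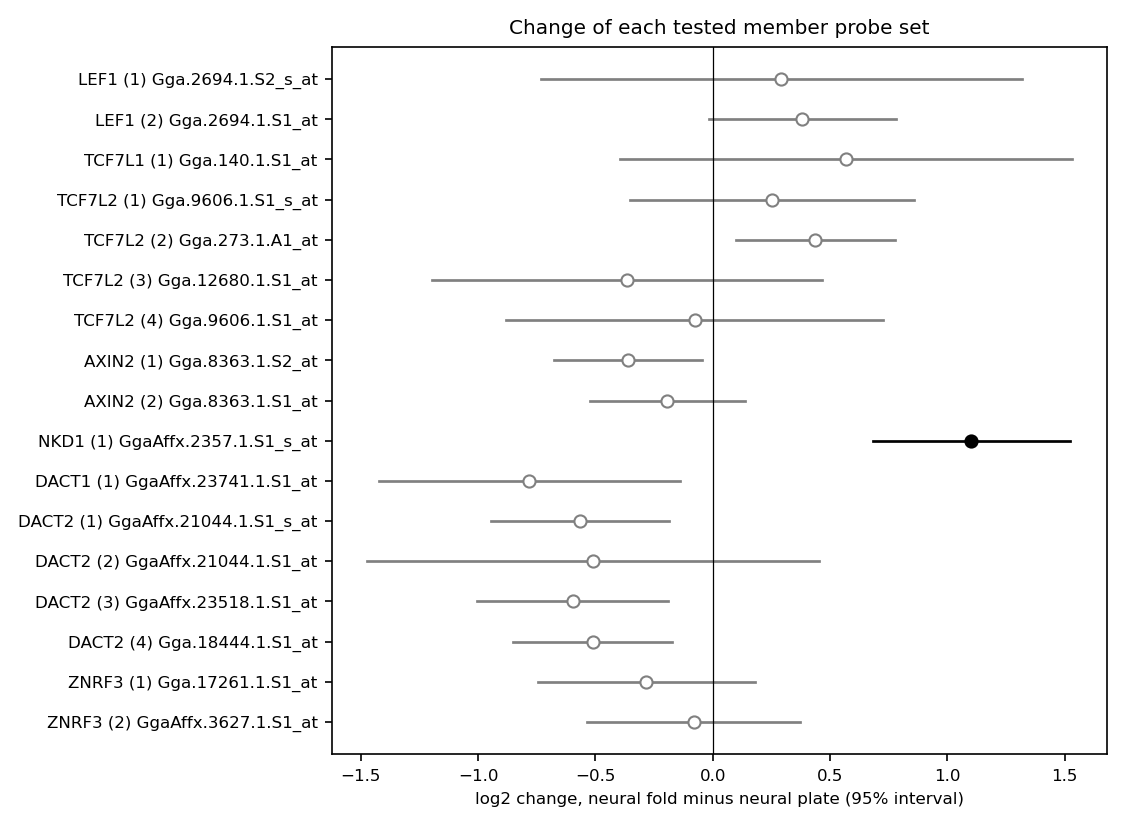
Log2 change of each of the 17 tested probe sets, neural fold minus neural plate, with 95% intervals from limma. The filled point, NKD1 at 1.10, is past the threshold, and open points are not. All 4 DACT2 probe sets lie between -0.60 and -0.51.

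ZNRF3 encodes a membrane ubiquitin ligase that removes Frizzled receptors from the cell surface, and is itself induced by Wnt. On its brighter probe set the neural fold values were 10.65, 11.27, 10.94 and 11.49, and the neural plate values 11.34, 11.39, 11.26 and 11.50. The neural plate arrays were close together (SD 0.098) and the neural fold arrays spread around and below them (SD 0.37). The difference was -0.28 ± 0.20 (limma adjusted p = 0.93). It was -0.15 without both arrays numbered 1. Leaving out 1 array moved it from -0.42, without neural fold array 4, to -0.14, without neural fold array 1. On the dimmer one the difference was -0.08 ± 0.20, with an interval of -0.54 to 0.37, and here the neural fold arrays were the tighter ones (SD 0.050 against 0.36).

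LEF1, the factor of the family that is most often a Wnt target itself, was measured by 3 probe sets. On the second in brightness the neural fold values were 7.57, 7.50, 7.74 and 8.00, and the neural plate values 7.58, 7.30, 7.24 and 7.15. Neural plate array 1 lay among the neural fold arrays, and the other 3 neural plate arrays lay below all of them. The log2 difference was 0.38 ± 0.17 (SE), an interval of -0.017 to 0.78 (limma adjusted p = 0.65). Without both arrays numbered 1 it was 0.51 (adjusted p = 0.21).

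On the brightest LEF1 probe set the neural fold values were 10.39, 8.94, 9.19 and 9.09, and the neural plate values 10.26, 8.80, 8.60 and 8.77. The arrays numbered 1 lay 1.31 and 1.54 above the mean of the other arrays of their tissue. The difference was 0.29 ± 0.45, and it was higher in neural fold in 4 of 4 pairs by number, by 0.12 to 0.59. Without both arrays numbered 1 it was 0.35 ± 0.12 (limma adjusted p = 0.27). Leaving out single arrays moved it from -0.036, without neural fold array 1, to 0.68. The third LEF1 probe set was too dim to be tested and, by each array's own limit, lay above background on 1 of 4 neural fold arrays and 0 of 4 neural plate arrays.

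TCF7L1 had the largest positive mean difference among the probe sets that did not pass. Its neural fold values were 10.15, 9.05, 9.38 and 10.07, and its neural plate values 10.17, 8.83, 9.10 and 8.29. The tissues overlapped, both arrays numbered 1 were high, and neural plate array 4 was the lowest of all. The difference was 0.57 ± 0.42, with an interval of -0.40 to 1.53 (limma adjusted p = 0.94), and pair 4 alone had a difference of 1.78, against -0.01 to 0.28 in the other 3. Without both arrays numbered 1 it was 0.76 ± 0.33 (adjusted p = 0.35), and leaving out 1 array moved it from 0.30, without neural plate array 4, to 0.92, without neural plate array 1. In the fit with all arrays, a change of TCF7L1 of up to 2.89-fold towards neural fold, or 1.32-fold towards neural plate, lies within that interval.

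TCF7L2, which can act as an activator or a repressor depending on its splice form, had 5 probe sets that did not move together. Of the 4 tested, 2 had positive and 2 negative differences, from -0.37 to 0.44, and none passed. The probe set with the tightest arrays was the second in brightness, with neural fold values of 8.16, 7.95, 7.94 and 7.84 and neural plate values of 7.40, 7.48, 7.53 and 7.72. The tissues did not overlap there, and the difference was 0.44 ± 0.15 (limma adjusted p = 0.37), the one tested TCF7L2 probe set whose interval, 0.10 to 0.78, leaves out 0.

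By contrast, on the third TCF7L2 probe set the neural fold arrays gave 7.74, 7.46, 6.42 and 7.21 and the neural plate arrays 8.04, 7.86, 6.74 and 7.67. Neural plate was higher in 4 of 4 pairs by number, by 0.30 to 0.46 in size, although the tissues overlapped, and the fit without the block gave -0.37 ± 0.36. The array numbered 3 was the lowest in both tissues, and that of neural fold lay below background. Leaving out 1 array moved the difference on the third probe set from -0.65, without neural plate array 3, to -0.11, without neural fold array 3. The brightest differed by 0.25 ± 0.26, or 0.10 without both arrays numbered 1, and the fourth by -0.08 ± 0.35, and the fifth, above background on 1 and 2 of 4 arrays, was not tested. As a mean over its 4 tested probe sets TCF7L2 differed by 0.06 ± 0.12.

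Overlap and matching by number describe the values of the 17 tested probe sets on the same 8 arrays in another way. Pairing of arrays 2 to 4 was not shown, so counts over pairs are not a paired test. On 6 of them, 1 each for NKD1, TCF7L2 and AXIN2 and 3 for DACT2, the tissues did not overlap, 2 higher and 4 lower in neural fold. Of all tested probe sets 6.71% had no overlap, 3.12% higher and 3.59% lower. On 12 of the 17 all 4 pairs of same-numbered arrays differed in 1 direction, where 25.4% of all tested did, 11.9% higher and 13.5% lower in neural fold. Of these 12, 3 were higher in neural fold (NKD1, 1 of LEF1 and 1 of TCF7L2) and 9 lower (both of AXIN2, all 4 of DACT2, and 1 each of DACT1, ZNRF3 and TCF7L2). Of the 19 probe sets, 15 lay above background on all 8 arrays.

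**Figure D3:**
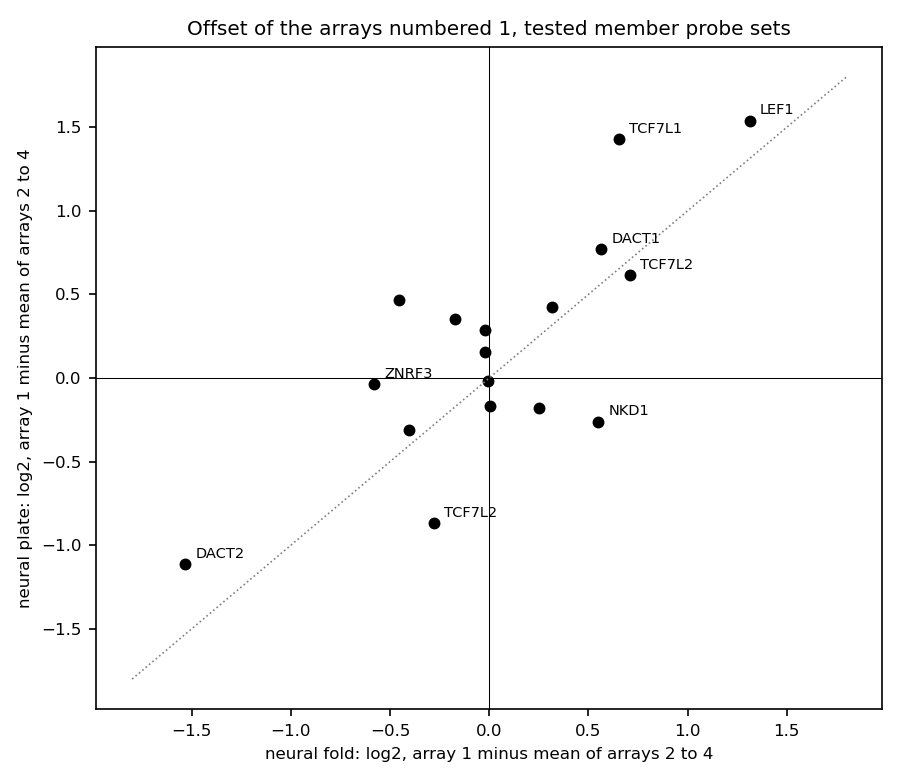
Normalized log2 value of the array numbered 1 minus the mean of arrays 2 to 4, in neural fold (horizontal) and neural plate (vertical), for the 17 tested probe sets. The dotted line marks equal offsets. The brightest LEF1 probe set lies at 1.31 and 1.54 and the second DACT2 probe set at -1.53 and -1.11.

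The offset of the arrays numbered 1 was shared by the tissues on some probe sets. On 2 of the 17, the brightest of LEF1 and the second of DACT2, it exceeded 1 on the log2 scale in the same direction in both tissues (11.8%), as it did on 10.5% of all tested probe sets. The median size of the offset over the 17 was 0.40 for neural fold and 0.35 for neural plate, compared with 0.54 and 0.52 over all tested. For NKD1 the offset was 0.55 for neural fold and -0.26 for neural plate, so that the pair numbered 1 had the widest difference.

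The rest of the pathway, and genes that depend on it, were described with 121 other genes. Of these, 87 had a tested probe set, the brightest standing for each gene. Of the 87, 5 were higher in neural fold, 3 lower and 79 not past the threshold. Of 10279 named genes 1.75% were called, 0.924% higher and 0.827% lower. The median log2 difference was 0.03 over the 87, against -0.01 over all named genes. The lists were chosen with earlier results of these data known, which limits this comparison of shares. They include genes known to depend on Wnt rather than parts of the pathway, of which 9 were tested. Those 9 hold 3 of the higher calls and 1 of the lower ones, the lower one being TBXT, also a midline marker above. Among the 27 tested genes of the lists of nuclear partners and of the destruction complex, 0 passed by limma and 0 at an unadjusted p under 0.05, by the brightest probe set. At that unadjusted p, 4.01% of all named genes were higher and 5.06% lower. For the 11 nuclear partners differences ran from -0.16 to 0.23 on the brightest probe set. Over all 20 tested probe sets of these 11 genes they ran from -1.52 to 0.64, and 0 were called by limma (1 higher and 1 lower at an unadjusted p under 0.05). The lower one was a dimmer probe set of the co-repressor TLE3 (-1.52 ± 0.59), and the higher one, without overlap, was a dimmer probe set of its relative TLE4 (0.55 ± 0.17), both named after their values were seen. CTNNB1, which encodes beta-catenin itself, had a mean of 14.58 ± 0.06 over the neural fold arrays and 14.72 ± 0.10 over the neural plate arrays (SD, n = 4), a difference of -0.14 ± 0.13 (SE, limma adjusted p = 1.00). For the 16 genes of the destruction complex and its partners differences on the brightest probe set ran from -0.35 to 0.49, and AXIN1, the relative of AXIN2 that is not known as a Wnt target, differed by -0.03 ± 0.16.

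The calls outside the cell were for a ligand and secreted antagonists. WNT6, a ligand of the ectoderm, was the 1 gene called higher of 17 in the list of ligands and R-spondins (1.88 ± 0.32, limma adjusted p = 0.029). The list also holds WLS, which is neither. Of the 17, 5 were higher, WLS among them (0.49 ± 0.16), and 3 lower at an unadjusted p under 0.05. The WNT6 call was lost with the values as deposited, with no filter and in 6 of 8 fits without 1 array, being kept without neural fold array 2 or neural plate array 1. WNT3A, a dorsal ligand, had a difference of 1.42 ± 0.43 (adjusted p = 0.27) that passed when the number was a block (0.016) and when both arrays numbered 1 were left out (0.014). The values as deposited called WNT3A higher and WNT5B, another ligand, lower. Leaving out both arrays numbered 1 also called WNT5A higher (limma adjusted p = 0.034), and WNT5B (0.046) and the antagonist SFRP4 (0.032) lower. A term for those arrays, added after seeing the data, called WLS and WNT3A higher and WNT4 and WNT5B lower. Of 11 secreted antagonists DRAXIN rose, by 2.09 ± 0.17, and SFRP1 (-1.22 ± 0.23, adjusted p = 0.048) and WIF1 were lower. Another SFRP1 probe set was also called lower (-1.25 ± 0.20, limma adjusted p = 0.022), but a further one was not (-0.13 ± 0.25). WIF1 differed by -2.92 ± 0.46 (limma adjusted p = 0.020, and 0.091 with the block), but it lay at or below background on all 4 neural fold arrays. Its neural plate mean (8.09 ± 0.51, SD, n = 4) was 2.86-fold above the mean background limit of the neural fold arrays, a point value without allowance for that spread. At an unadjusted p under 0.05, 1 antagonist was higher and 4 lower. Without 1 array, the call was kept in 8 of 8 fits for DRAXIN, in 2 of 8 for WIF1 (without array 1 of either tissue) and in 1 of 8 for SFRP1 (without neural fold array 1), which also lost it with no filter. Of 18 receptors and receptor regulators 0 passed by limma in either direction (1 higher and 3 lower at an unadjusted p under 0.05). For each of these lists the share of all named genes at that unadjusted p was 4.01% higher and 5.06% lower.

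**Figure D4:**
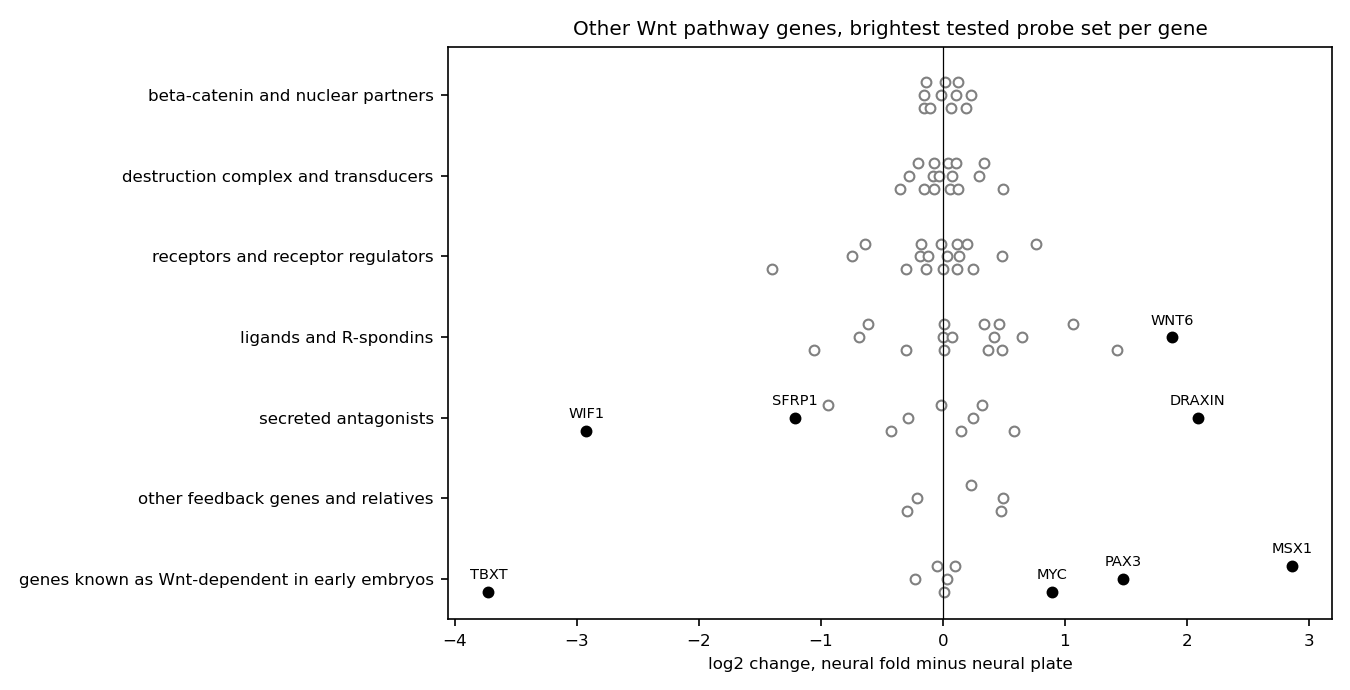
Log2 change, neural fold minus neural plate, of 87 other genes of the Wnt pathway or known to depend on it, grouped by role, 1 point per gene. Filled points with names passed the threshold. On the brightest probe set per gene, shown here, the 11 nuclear partners lie between -0.16 and 0.23. Over all 20 tested probe sets of these 11 genes the range is -1.52 to 0.64. The 8 called genes are 1 ligand (WNT6), secreted antagonists and genes known to depend on Wnt.

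Among 9 tested genes known to depend on Wnt in early embryos, 3 rose in neural fold and 1 fell. The list was chosen with earlier results of these data known, and 0.924% of all named genes were called higher and 0.827% lower. MSX1 rose by 2.86 ± 0.22 and PAX3 by 1.48 ± 0.21, both transcription factors active at the border, and MYC by 0.89 ± 0.15 (limma adjusted p = 0.030). MYC lost its call with median centring, with no filter and in 7 of 8 fits without 1 array, all but the one without neural fold array 1. PAX3 lost it with median centring and in 2 of 8 such fits, without neural fold array 2 or 4, while MSX1 and TBXT kept theirs in all 8. TBXT, a mesoderm factor and one of the midline markers above, fell by 3.72 ± 0.16. Of 5 tested relatives and further feedback genes 0 passed by limma on the brightest probe set (1 higher and 0 lower at an unadjusted p under 0.05). A dimmer probe set of APCDD1, one of these genes, differed by -0.56 ± 0.18 (limma adjusted p = 0.30), but its brightest differed by 0.23 ± 0.37. SP8, of the same factor family as SP5, averaged 10.91 ± 0.11 on neural fold arrays and 10.43 ± 0.14 on neural plate arrays, without overlap (0.48 ± 0.15, adjusted p = 0.29).

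**Figure D5:**
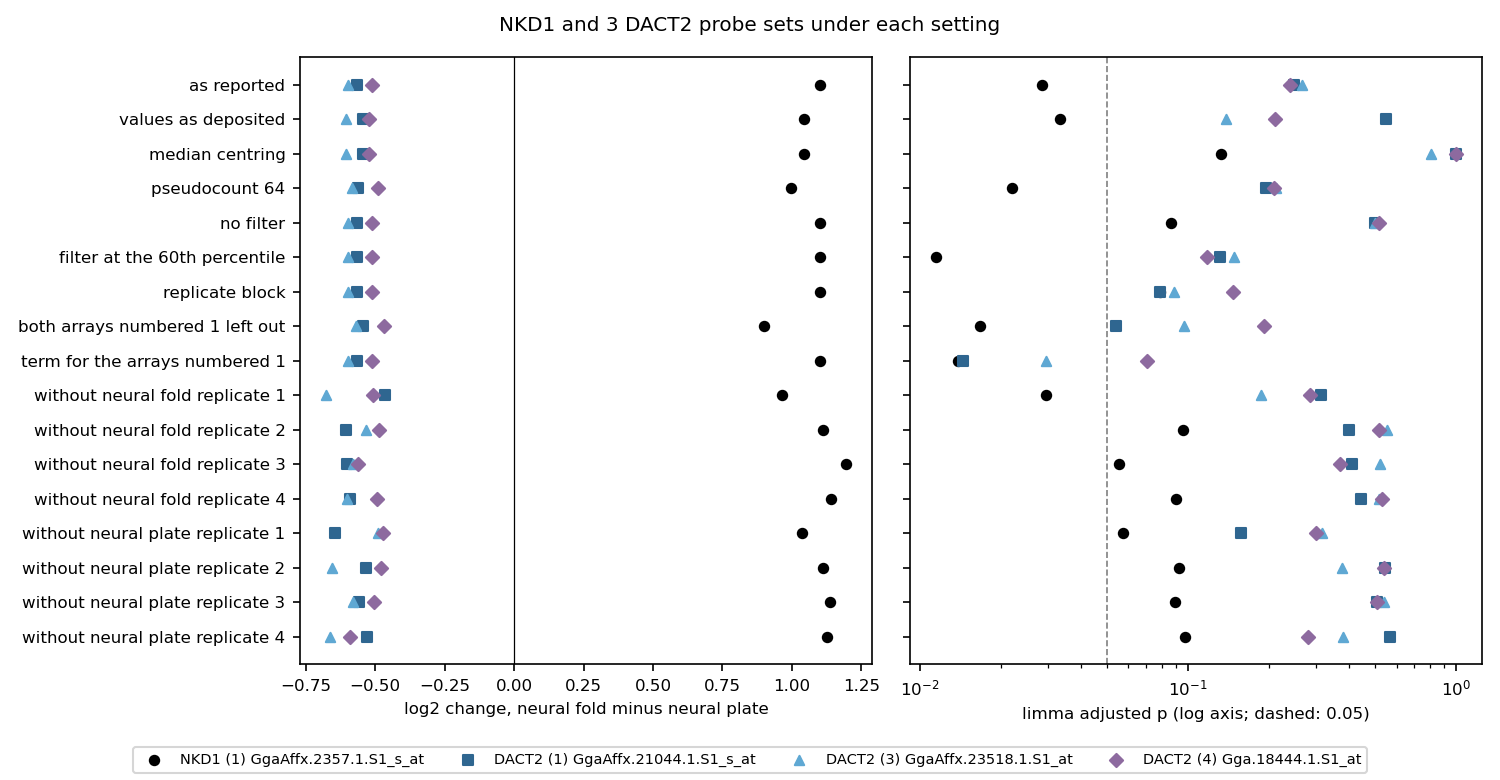
Log2 change (left) and limma adjusted p (right, log axis) of NKD1 and the 3 DACT2 probe sets without overlap, as reported and under each alternative. NKD1 stays between 0.90 and 1.19 while its adjusted p crosses 0.05, and the DACT2 probe sets stay between -0.68 and -0.47.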

How the data were processed

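Total RNA from 4 neural fold and 4 neural plate samples, grouped by their titles, was hybridised to 1 array each. The deposited table holds 1 linear intensity for each probe set on each array, made with GCOS per the submitters' processing notes, with version, background treatment and detection calls not given in the sources used here. The mean after trimming 2% at each end was 500.1 on every array. The number of arrays limits the precision. Of 38535 probe sets, 96 controls were left out, and 0 columns were unused.

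Values were analysed as log2(intensity + 16), which understates changes of dim genes, and quantile normalized. Probe sets with a mean at or above the 40th percentile (23063) were tested with limma 3.58.1 in R 4.3.3 (lmFit, eBayes), neural fold minus neural plate, Benjamini-Hochberg adjusted over all of them, threshold 0.05. The script was tested on simulated data. The background limit per array was the 95th percentile of 59 bacterial and tag controls. Symbols came from the platform's 2016 annotation, 27168 probe sets having 1 symbol, 177 several and 11094 none. Entrez IDs of 26853 were found in RefSeq (GRCg7b table), and 0 symbols changed. No genome or sequence table was used, and no coordinates or sequences are printed.

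Same-numbered arrays of both tissues deviated together from their tissue means (correlations 0.62, 0.19, 0.29 and 0.21 over tested probe sets). The highest correlation of each neural fold array with a neural plate array of another number was -0.24, 0.28, 0.28 and 0.21. Neural fold array 2 thus matched another number better than its own, and arrays 3 and 4 matched both about equally. By that criterion the numbers pair the arrays numbered 1, but pairing of the others was not shown. The labels do not say what a number shares. Without the arrays numbered 1 the same-number correlations were 0.054, 0.091 and -0.044. The fit without the block is the one reported. Members, lists and the rule for named genes (all members, other Wnt genes past the threshold, PAX7, SNAI2, SHH, TBXT and SOX2, and the 3 profiles nearest to a called member) were chosen with earlier results of these data known. Other genes are named as examples after their values were seen.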

Additional observations from a re-analysis of the deposited data

Results flagged for a closer look

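In 38 groups of 4 arrays (19 probe sets in 2 tissues), 5 held an array far from the other 3 by Dixon's ratio of gap to range, where chance flags about 1 in 20. On the brightest LEF1 probe set, neural plate array 1 was highest at 10.26, the others lying at 8.60 to 8.80 (ratio 0.878). On the brightest DACT2 probe set, neural fold array 1 was lowest at 12.03 against 12.40 to 12.45 (ratio 0.901). On the second DACT2 probe set, the array numbered 1 was lowest in both tissues, at 11.13 against 12.53 to 12.76 in neural fold (ratio 0.856) and at 11.95 against 13.00 to 13.13 in neural plate (ratio 0.89). On the fourth TCF7L2 probe set, neural plate array 2 was lowest at 6.05 against 7.37 to 7.53 (ratio 0.888).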

How the results depend on the processing

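Of 269 recomputed changes of single member probe sets, 250 kept their direction and their side of the threshold. NKD1 lost its call in 10 of 16 alternatives, 7 of them leaving out 1 array, which also leaves fewer samples, and the number of called member probe sets was then 0, as it was with median centring, no filter and the replicate block. With a term for the arrays numbered 1, chosen after seeing the data, it was 3 (2 lower), and the 2 DACT2 gains stand in the report. Sign changes were seen for 3 probe sets that were not called. The fourth TCF7L2 probe set gave 0.15 without both arrays numbered 1 and -0.43 to 0.067 when single arrays were left out, the brightest LEF1 probe set gave -0.036 to 0.68 and the dimmer ZNRF3 probe set -0.25 to 0.016 when single arrays were left out, and the cause was not tested.

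Over all probe sets, 295 were called (160 higher, 135 lower). Median centring called 151 (90 and 61), leaving out both arrays numbered 1 540 (257 and 283), the term for those arrays 863 (386 and 477, 44.7% higher against 54.2%) and no filter 89 lower. Leaving out single arrays called 139 to 301 (86 to 162 higher, 49 to 141 lower) and 0 to 1 member probe sets. Of the other Wnt genes, 8 were called, but 5 with no filter (3 higher), 3 higher with median centring, 5 lower in the fits that left out the arrays numbered 1 or gave them a term, and 3 to 8 (2 to 4 higher, 1 to 4 lower) when single arrays were left out. The replicate block, whose pairing rests mainly on the arrays numbered 1, called 398 probe sets, ended the calls of NKD1 and WIF1 and added WNT3A, and it changed no other call described here among members and the other Wnt genes. Only 1 member probe set too dim to test lay above background on 0 arrays of a tissue.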
